A study of Astyanax mexicanus with 6 samples.

Results

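Upstream regions of 463 genes were at least 25 percentage points more methylated in the cave eye library than in the surface eye library of Astyanax mexicanus, the Mexican tetra. They were taken from 25271 genes, of which 23372 had 50 or more calls upstream in each library, so that they made up 1.98% of the regions that could be judged. A call is a cytosine scored as methylated or unmethylated in whole-genome bisulfite sequencing (WGBS), where unmethylated cytosines are read as thymine. The regions were chosen by the upstream levels of these same 2 libraries, so those levels are given as a description and no test was run on them. In the opposite direction 388 regions were at least 25 points lower in the cave library.

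The samples were eyes dissected from cave and surface morph embryos near 54 hours after fertilization, both labelled wild type. Each morph gave 1 WGBS library and 2 libraries of poly(A) RNA, and RNA and DNA were isolated with a single kit. The cave morph is the blind form of the species, whose eye starts to form in the embryo and later degenerates, and the title of the study points to an epigenetic mechanism. The sources used here do not give the cave population, the number of embryos behind a library or the cell types in it, and whether a morph's 2 RNA libraries were made from different embryos is not stated, so an RNA p-value covers library-to-library spread that can be technical.

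In vertebrates DNA is methylated mainly at cytosines followed by guanine. Most of the genome carries the mark, while the stretch around the start of many genes stays free of it. High methylation around a start site is commonly found with low transcription, whereas gene bodies are methylated in active genes too. DNA methyltransferases of the dnmt3 family place new marks, dnmt1 copies them when DNA is replicated, and tet enzymes start their removal.

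The labels and the RNA values were compared first. Eye genes were present, but transcripts of photoreceptors were far more abundant under the cave label. Counts of rho, which encodes rod opsin, were 17664 and 26989 under the cave label, against 0 and 7 under the surface label. For a morph whose eyes degenerate this is the opposite of what is known, and whether RNA labels were exchanged was not tested. RNA libraries are therefore called by their labels. The WGBS libraries, called cave and surface DNA below, are also named by their labels, which could not be checked in this way. If WGBS labels were exchanged, each upstream and gene body difference given here would change sign. The summed level of 16 eye marker genes was 3387 and 5197 CPM (counts scaled to the size of the library) under the cave label, against 1187 and 897 under the surface label. That of 9 genes on a list for brain outside the retina, th and tbr1b among them, was 69.4 and 20.9 CPM, against 138 and 224. Whether genes of this list are also active in the retina was not tested. Cave replicate 2 stood apart, with 1078 CPM of 7 epidermis and cornea genes where cave replicate 1 had 10421 and the surface libraries 8548 and 10594. The 11 blood and macrophage genes summed to 107 and 67.1 CPM, against 167 and 141. Of 2 myeloperoxidase genes named mpx, 1 was at 0 in all 4 libraries and the other had 1394 and 361 counts under the cave label, against 1397 and 1855 under the surface label. RNA totals lay between 117742250 and 154476181 counts.

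The 463 regions were of intermediate level in the surface library and mostly high in the cave library. Their median was 78.9% methylated in the cave library, with quartiles of 61.6% and 89.4%, against 36.6% in the surface library, with quartiles of 22.6% and 53.8%. Pooled over their calls, 72.2% of 341616 were methylated in cave DNA and 33.9% of 276721 in surface DNA. The rise was 33.8 points at the median. It was under 30 points in 159 regions and 50 points or more in 65. Few regions went from one end of the scale to the other, since 21 were under 20% in the surface library and at 75% or more in the cave library. In the cave library 263 of the regions, or 56.8%, were at 75% or more, 109 were at 90% or more and 56 stayed under 50%.

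**Figure D1:**
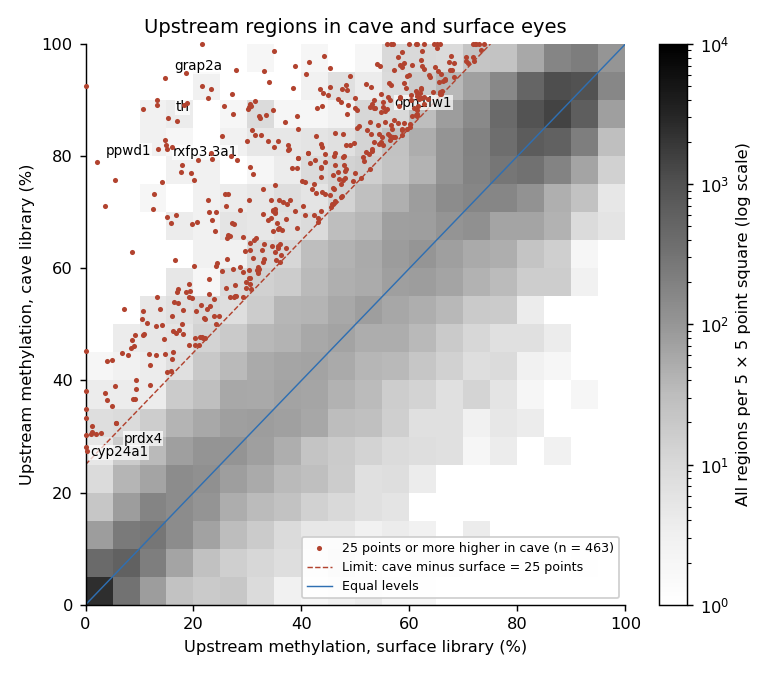
Methylation of upstream regions in the cave library (vertical axis, percent) against the surface library (horizontal axis, percent). Grey squares count all regions with 50 or more calls in each library on a log scale, red points are the 463 regions at least 25 points higher in the cave library, the dashed line is that limit and the blue line marks equal levels. Most regions lie along the blue line at its lower and upper ends, and the red points are spread over surface levels from 0 to 73.7%.

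The surface level was set beside that of all regions, since a region above 75% could not rise by 25 points. Of the 463 regions 97 started under 20%, 153 between 20 and 40%, 146 between 40 and 60% and 67 between 60 and 75% in the surface library. Among all regions of those levels, the share that rose by 25 points was 1.61% of 6017, 7.26% of 2107, 7.21% of 2025 and 2.62% of 2562. Regions at 20 to 40% made up 33.0% of the set, against 9.02% of all regions with 50 calls, and those at 40 to 60% made up 31.5%, against 8.66%. The 10661 regions above 75% held 45.6% of all regions and none of the set. The end level followed the start, as the limit in part requires, with a cave median of 49.8% for those that began under 20% and 94.1% for those that began above 60%.

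The regions were covered by fewer calls than others. They had a median of 428 calls in cave and 330 in surface DNA, against 1108 and 1018 over all regions with 50 calls. In the fifth of regions with the fewest calls, 50 to 390 in the poorer library, 275 regions or 5.86% were in the set, against 19 or 0.407% in the fifth with 2005 calls or more. Regions that were 25 points lower in the cave library were also most frequent there, at 3.73% and 0.621% of the same groups. The part of depth in the choice of regions was not tested. With 200 or more calls in each library, a limit chosen after seeing the data, 287 regions were left. In all 463 the exact (Clopper-Pearson) 95% intervals of both levels were apart, which the choice by a 25-point gap in the same calls largely requires. The share over all regions was not computed. These intervals cover counting error only, and calls on 1 read are not independent. Each methylated and unmethylated count of the cave library was even, and whether calls were counted in pairs was not tested. With cave calls halved the set held 425 regions.

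**Figure D2:**
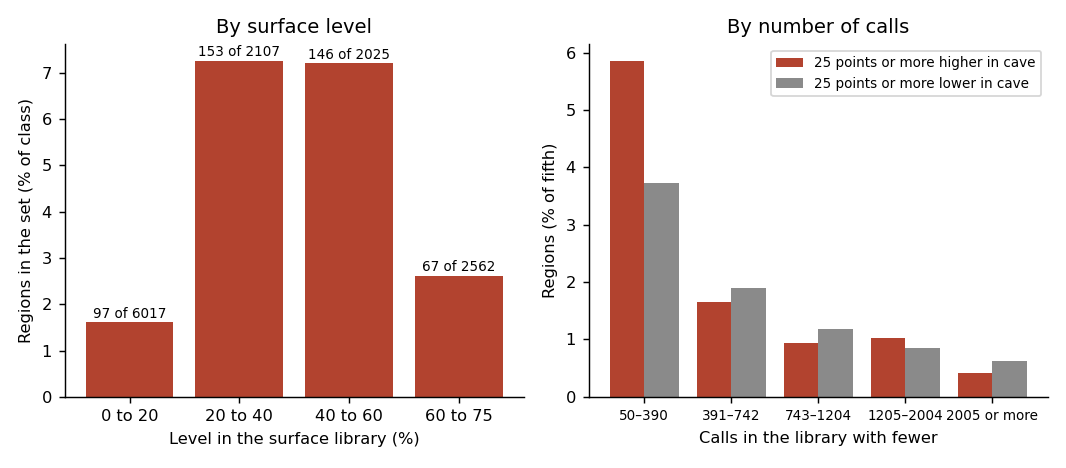
Share of regions (vertical axes, percent) that were at least 25 points higher in the cave library, by their level in the surface library (left) and by calls in the library with fewer calls (right, in 5 groups of near equal size of the 23372 regions, with regions at least 25 points lower in grey). Regions between 20 and 60% in the surface library and those with 390 calls or fewer hold the highest shares.

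The limit cut through a continuous range. Just inside it was AP1S2, a gene of a clathrin adaptor subunit, at 83.7% in cave and 58.7% in surface DNA, a difference of 25.05 points, between a pair of genes without symbol at 25.04 and 25.06 points. Just outside were the autophagy gene dram1, at 46.1% against 21.1%, and the retinoid receptor gene rxrab, at 71.2% against 46.3%, both within 0.04 points of the limit.

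Among genes with a symbol other than a clone name, the 12 largest rises ran from 65.6 to 79.2 points and belonged to genes of unlike function. The largest was at grap2a, which encodes an adaptor of lymphocyte signalling, with 94.0% of 100 calls in cave DNA (95% interval 87.4 to 97.8%) and 14.8% of 88 calls in surface DNA (8.11 to 23.9%). At nipa2, a magnesium transporter gene on scaffold KB882122.1 (2020416 to 2027839, minus strand), the levels were 88.4% of 1172 calls in cave DNA and 10.6% of 725 calls in surface DNA. At ppwd1, a peptidylprolyl isomerase gene of the spliceosome, the levels were 79.0% of 238 calls and 2.16% of 232 calls. Among the intervals of these 3 genes, the widest was that of grap2a in surface DNA. Larger still, at 92.5 points, was the rise at ENSAMXG00000014098, a gene without symbol, with 92.5% of 80 calls in cave DNA and 0 of 62 calls in the surface library, where 3 calls would be 4.84%. The build behind these positions is not named.

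Neural genes stood next. The region of pcdh2ac, a clustered protocadherin gene of neuronal surfaces, was at 89.2% of 980 calls in cave DNA and 13.2% of 242 calls in surface DNA. That of th, the gene of tyrosine hydroxylase, the rate-limiting enzyme of dopamine synthesis (KB871579.1, 3365037 to 3383660, plus strand), was at 86.8% of 1346 calls and 15.3% of 1981 calls, with intervals of 84.8 to 88.5% and 13.8 to 17.0%. The region of th had the more calls of the pair in the surface library, with narrow intervals in both.

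The others were VGLL3, a cofactor of TEAD transcription factors (75.7% in the cave and 5.54% in the surface library), the proton channel gene hvcn1 (86.2% and 17.0%), the peptide receptor gene rxfp3.3a1 (82.9% and 14.8%), phf13, which encodes a PHD finger protein that binds methylated histone H3 (71.2% and 3.66%), igfbp3, of an insulin-like growth factor binding protein (95.3% and 27.9%), the lysosomal amino acid transporter gene pqlc2 (81.2% and 15.1%) and the sterol carrier gene scp2b (81.6% and 16%). Of these, rxfp3.3a1 had 3138 calls in cave and 2174 in surface DNA, and hvcn1 had 2776 and 3163, the most among them.

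The set lay on 300 scaffolds. Of its regions 52 fell into 25 groups of neighbours within 20 kb of each other, none larger than 3. The number of such groups to be found among other regions was not computed, so the set is called neither scattered nor clustered. One group held marcksa, of a protein kinase C substrate at the membrane, the heparan sulfate enzyme gene HS3ST5 and the tyrosine kinase gene fynrk on KB882283.1 (1310589 to 1371614). A group of like size on KB882210.1 held wu:fc21g02 and a pair of genes without symbol. In the first group HS3ST5 was at 43.4% in cave and 4.06% in surface DNA, and fynrk at 43.6% and 4.91%. In 2 pairs of genes, prdx4 and its neighbour among them, all 4 call counts were the same, so that each pair is 1 measurement.

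The classes of gene in the set, made from gene symbols by lists or name patterns, were read against the whole table. A class can therefore hold genes of other function. Of regions whose gene carried a symbol, 326 of 16478 or 1.98% were in the set, and 68 of the 326 fell into at least 1 of the classes used. Genes of kinases and phosphatases had 13 of 352 regions in the set (3.69%) and 2 at least 25 points lower. Among them were the receptor phosphatase genes ptprna, at 87.1% in cave and 32.1% in surface DNA, and ptprz1a, at 79.3% and 28.0%, and the kinase genes STK32C, at 76.9% and 31.0%, and PIK3R6, a phosphoinositide kinase subunit gene, at 87.6% and 48.4%.

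Genes matched by symbol to Wnt, FGF, BMP, hedgehog and Notch signalling had 6 of 166 (3.61%), with 3 at least 25 points lower. The match does not show that each acts in these pathways, as with fgfr1op2. Their largest rises were at grem1b, of a secreted BMP antagonist (93.2% and 33.9%), smoc2, of a matrix protein (69.2% and 15.02%), fgfr1op2 (52.3 points higher) and sfrp1b, of a secreted Wnt antagonist (68.5% and 23.4%). The regions of smad4a and smad3b, genes of mediators of TGF-beta and BMP signals, rose by 30.2 and 30.5 points, smad4a to 30.2% of 298 calls in cave DNA, against 0 of 333 calls in the surface library, where 3 calls would be 0.901%.

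Regulators of development were read family by family. None of 45 hox regions was in the set, and their differences ran from -7.34 to 3.53 points. Other homeobox genes had 1 of 153 (0.654%), pax10, a pax6 relative of the fish eye, at 83.5% in cave and 55.0% in surface DNA. Genes of the sox, fox, tbx and gata families had 2 of 93 (2.15%), tbx6, a regulator of somite formation, and a copy of FOXL2. The helix-loop-helix factors had 3 of 73 (4.11%), led by tcf21, at 80.0% of 2770 calls and 26.9% of 2387 calls. None of 94 axon guidance genes was in the set.

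The remaining classes by symbol lay between 0.455 and 3.64% and held 1 to 5 regions each, of which those with 3 or more are named by their largest rises. Mitochondrial genes matched by symbol had 5 of 196 regions. Among them were timm23a of the inner membrane translocase (37.9 points) and mrpl39 of the mitochondrial ribosome (32.0). The respiratory genes named were uqcrc2b of complex III (35.4) and atp5o of the ATP synthase (34.0). Solute carriers had 4 of 380, led by the bicarbonate transporter gene slc4a8 (44.5 points). Ubiquitin genes had 4 of 360, led by ube2w (40.2), and RNA processing genes 4 of 171, with cstf3 (32.8) after ppwd1. Collagen, laminin and integrin genes had 3 of 110, led by the laminin gene lama4 (36.7). Synapse and vesicle genes by symbol had 3 of 114, led by the syntaxin gene stx18 (38.8). Genes of small GTPases and their regulators by symbol had 3 of 309, led by the exchange factor gene arhgef16 (47.2). Cytoskeleton genes had 3 of 205, led by the cilium gene cfap73 (58.5). Regions at least 25 points lower numbered 3 for mitochondrial genes, 3 for solute carriers, 2 for ubiquitin genes and 6 for RNA processing genes. They numbered 1 each for the collagen and synapse classes, 9 for small GTPases and 2 for cytoskeleton genes. Among lists for other tissues, the list for brain outside the retina had 1 of 22 regions (4.55%). This was the region of th, whose activity in the retina was not tested. Neither epidermis and cornea (16) nor blood and macrophages (19) had any. At least 25 points lower were 1 region of the brain list and 1 of the blood and macrophage list. The latter was a copy of LYZ, at 9.68% in cave and 67.2% in surface DNA. With counts this small and no test run, no class can be called more frequent in the set than another.

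The eye lists held 1 region of the set. Of 48 photoreceptor and visual cycle regions measured 1 was in it, that of opn1lw1, the long-wavelength cone opsin gene (KB871987.1, 251107 to 253611, plus strand). It had 93.0% of 1146 calls in cave DNA (interval 91.4 to 94.4%) and 56.2% of 1300 calls in surface DNA (53.5 to 58.9%). The differences of the list ran from -45.5 to 36.8 points with a median of 1.36, and 2 regions were at least 25 points lower. These were rom1b of the outer segment disc, at 30.5% in cave and 76.1% in surface DNA, and the copy named GNAT2 of the cone transducin gene, at 41.8% and 68.6%. Just below the limit stood grk1b, an opsin kinase gene, at 83.1% and 58.3%, a difference of 24.8 points.

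Of 24 regions of retinal transcription factor genes, 30 of lens genes and 23 of pigment genes none was in the set. Their largest rises were 20.4 points at crx, a photoreceptor regulator (40.6% and 20.2%), 20.7 points at the lens regulator FOXE3 (58.4% and 37.7%) and 20.3 points at the melanosome gene MLANA (73.5% and 53.2%). The lens gene lim2.3 differed by more in the other direction, at 61.0% and 82.4%. The lists match exact symbols. The lens list held tdrd7a, at 10.7% and 19.2%, but not the gene named TDRD7, which was in the set at 68.7% and 33.7%. None of the set was among 13 genes that write or remove DNA methylation, of which tdg.2, of a glycosylase that removes oxidized methylcytosine, came nearest at 52.8% and 28.7%. The gene of the de novo enzyme dnmt3bb.1 was at 3.20% and 2.94%.

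Most gene bodies did not follow their upstream region. Of the 463 genes 457 had 50 or more calls in the body in each library. At the median 80.4% of body calls were methylated in cave DNA, against 78.0% in surface DNA, and the median difference was 1.58 points with quartiles of -0.53 and 4.43 points. Over all 23035 genes with 50 calls in both regions the median difference was 0.955 points. In 412 genes the body differed by less than 10 points. It was at least 10 points higher in 40 genes (8.75%), against 3.1% of all 24897 gene bodies, and at least 10 points lower in 5 (1.09%), against 1.93%. For the 388 genes with a lower upstream region the counts were 14 of 383 (3.66%) and 19 (4.96%). These come from the same 2 libraries as the choice of genes and are a description. Across the 457 genes the Spearman correlation of the upstream and the body difference was 0.0469, with all points sharing both libraries. The rule for the set left out small upstream rises, which can weaken such a correlation. The value therefore does not show how the differences go together over all genes.

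**Figure D3:**
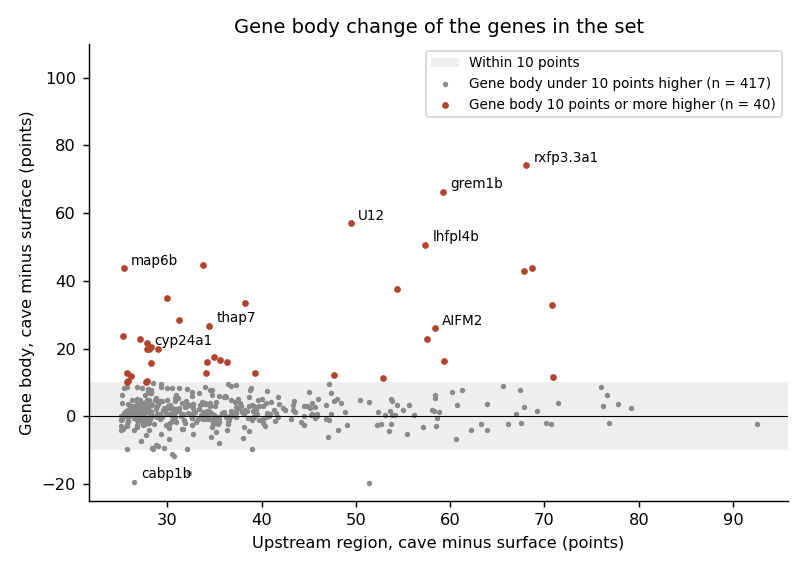
Gene body difference (vertical axis, cave minus surface, points) against upstream difference (horizontal axis, points) for 457 genes of the set with 50 or more body calls in each library. Red points are the 40 genes whose body was at least 10 points higher, and the grey band holds the 412 within 10 points. The points above the band lie at upstream differences of up to 70.9 points, and the genes with larger upstream differences are not among them.

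The 40 genes whose body rose too were short. Their median length was 2524.5 bp, and 16 were under 2000 bp, against a median of 11292.5 bp and 40 of 412 under 2000 bp among those within 10 points. Over all genes with a body 10 points higher the median length was 4007 bp. In the 40 genes the body was at 82.1% in cave and 45.2% in surface DNA at the median, whereas bodies of the 412 were at 80.5% and 79.0%.

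The largest body rise was at rxfp3.3a1 (KB882103.1, 6509069 to 6510070, minus strand), a gene of 1002 bp, with 87.8% of 8216 calls in cave DNA and 13.7% of 12333 in surface DNA. In grem1b the body was at 80.1% and 13.8%, in one of 2 U12 spliceosomal RNA genes of the set on KB871897.1 (201312 to 201464) at 88.2% and 31.2%, and in lhfpl4b, of a synaptic membrane protein, at 92.4% and 41.7%. The kinase gene tssk6 stood at 82.9% and 45.2%. A longer gene was map6b, which encodes a microtubule-stabilizing protein over 12805 bp, at 90.2% and 46.5%. The upstream and body rises of rxfp3.3a1, grem1b, U12 and lhfpl4b were of like size, between 49.5 and 74.1 points.

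Leaving clone names aside, 2 genes with a symbol had a body at least 10 points lower. In cabp1b, of a neuronal calcium-binding protein, the body was at 60.4% of 12254 calls in cave DNA and 79.7% of 10360 in surface DNA, while its upstream region was at 83.3% and 56.9%. In asb11, of a ubiquitin ligase subunit, the body was at 77.1% and 88.4%.

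RNA was not used to choose the genes, so it was tested across all genes. Of the 463 genes 418 passed the filter on low counts in edgeR's quasi-likelihood test, and 11 of the other 45 had no count in any library. Under the cave label 24 of the 418 were higher (5.74%) and 1 was lower (0.239%), at an adjusted p under 0.05 (Benjamini-Hochberg). Over all 22850 genes tested the shares were 2.77% and 0.407%. Among genes with a lower upstream region they were 13 of 356 (3.65%) and 3 (0.843%). In bulk eyes, fewer cells of a type and less RNA per cell cannot be told apart. Of 47 photoreceptor genes tested 41 were higher under the cave label, with a median log2 fold change of 4.95 for the list, and the part of eye cells in the calls of the set was not tested. The counts rested on the libraries used: 74 genes of the set (17.4%) were called higher and 72 lower (16.9%) by edgeR when cave replicate 1 was left out, against 12.9 and 18.1% of all genes. Without cave replicate 2 they were 80 (18.8%) and 25 (5.87%), against 11.2 and 8.37%. Without surface replicate 1 or without surface replicate 2 no calls held, in the set or among all genes tested. The median log2 fold change of the set was then 0.070 and 0.123, against -0.046 and 0.049 over all genes tested.

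The bulk of the genes showed no common direction. The median log2 fold change (labelled cave over labelled surface) of the 418 was 0.11, with quartiles of -0.35 and 0.67. Over the 21201 tested genes with 50 upstream calls it was 0.020. Without cave replicate 1 the median of the set was -0.019, against -0.044 over all genes tested. Without cave replicate 2 these medians were 0.133 and -0.020. With all libraries the log2 fold change was above 0 in 239 genes of the set (57.2%), against 51.2% of those 21201. By surface level, 1 higher and 1 lower gene came from the 92 tested that started under 20%. There were 11 higher of 144 at 20 to 40%, 9 of 122 at 40 to 60% and 3 of 60 at 60 to 75%. Over all 12102 tested genes at or under 75% in the surface library, 282 (2.33%) were higher and 41 (0.339%) lower. The share of all genes at each level was not computed, so the levels are not compared. The size of the upstream rise had a Spearman correlation of 0.0402 with the RNA change across the 418 genes. That of the gene body difference with the RNA change was -0.0529 across 416. Since small upstream rises were left out by the rule, the value of 0.0402 does not show how rise and RNA go together over all genes.

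**Figure D4:**
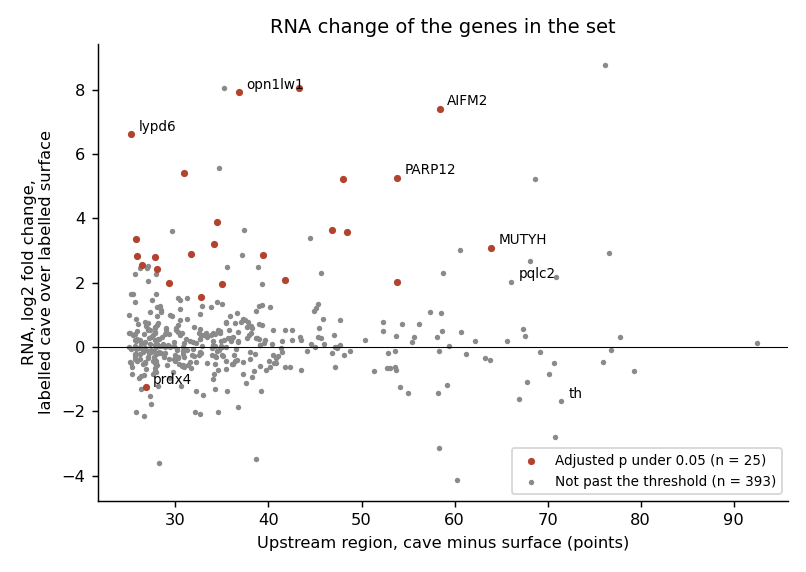
RNA log2 fold change, labelled cave over labelled surface (vertical axis), against the upstream difference in points (horizontal axis) for 418 genes of the set tested in edgeR. Red points are the 25 genes past the adjusted p of 0.05, of which prdx4 alone lies below 0, and the grey points lie on both sides of 0 at every upstream difference.

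Of the genes called higher, 1 was on the photoreceptor list and 1 in the synapse and vesicle class. The cone opsin gene opn1lw1 had 112034 and 135421 counts under the cave label, against 448 and 894 under the surface label. The log2 fold change was 7.92 (SE 0.45, adjusted p = 0.00279 in edgeR). Its gene body was at 94.2% in cave and 85.2% in surface DNA. The gene syt5b, of a calcium sensor of secretory vesicles, had 114851 and 117479 counts, against 22046 and 19408 (log2 2.83, SE 0.25). Its upstream region was at 97.6% of 336 calls and 71.8% of 333 calls. The gene cabp1b had 1805 and 2181 counts, against 408 and 466 (log2 2.56, SE 0.34). In all 3 genes the libraries of the 2 RNA labels lay far apart, which their choice by the same test largely requires. The upstream rise was fixed by the choice of regions. If RNA labels but not WGBS labels were exchanged, every RNA change given here would change sign while the methylation differences kept theirs.

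The gene AIFM2 (KB872296.1, 2045181 to 2051067, minus strand) encodes an oxidoreductase that protects membrane lipids from oxidation. It had 3773 and 2912 counts under the cave label, against 6 and 46 under the surface label. The log2 fold change was 7.40 (SE 0.92, adjusted p = 0.0218 in edgeR). Its upstream region was at 89.8% of 1576 calls in cave DNA and 31.5% of 1329 in surface DNA, and its body at 87.3% and 61.3%. The glutathione transferase gene gstt1a had 10729 and 14335 counts, against 1754 and 1722 (log2 3.21, SE 0.30). MUTYH, whose product removes adenine paired with oxidized guanine, had 1709 and 1383, against 257 and 199 (log2 3.08, SE 0.40), with an upstream level of 91.1% and 27.2%.

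The vitamin D catabolic gene cyp24a1, chosen after its values were seen as one of 2 called genes that began under 20%, had 2202 and 3120 counts under the cave label, against 478 and 503 under the surface label (log2 2.81, SE 0.37). Its upstream region was at 30.7% of 2386 calls in cave DNA and 2.82% of 2448 in surface DNA. The gene lypd6, of a membrane-anchored Wnt modulator, had 1140 and 1354 counts, against 20 and 12 (log2 6.61, SE 0.59), and thap7, of a zinc finger protein, had 1212 and 1693, against 72 and 193 (log2 3.87, SE 0.59). The body of thap7 was at 86.8% and 59.97%. The sugar-transferring enzyme genes ugt5f1 and st6galnac4 rose by 3.65 and 3.57 on the log2 scale.

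In edgeR prdx4, of a peroxiredoxin of the endoplasmic reticulum, was the 1 gene of the set called lower. DESeq2 called 13 lower (3.06%), against 3.31% of all genes. The gene prdx4 had 3718 and 3111 counts under the cave label, against 10529 and 10081 under the surface label. The log2 fold change was -1.26 (SE 0.21, adjusted p = 0.0453 in edgeR). Its upstream region, which it shares with its neighbour, was at 32.5% of 228 calls and 5.66% of 53 calls, and with a minimum of 100 calls it left the set.

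The others that passed were named after their values were seen. They were PARP12 (log2 5.27, with 332 and 113 counts against 6 and 8), the kinase gene mknk1 (2.44), the lipid-binding gene OSBPL1A (2.02), spata6l (2.005), TDRD7 of RNA granules (1.97), the proton pump subunit gene atp6v0a1a (1.57), si:dkey-94f20.4 (2.87) and 6 genes without symbol. Of the genes without symbol ENSAMXG00000001271 had 54832 and 3772 counts, against 112 and 152, so that its log2 value of 8.06 (SE 1.37) came with a wide gap between the cave replicates. In 24 of the 25 genes both libraries labelled cave lay above both labelled surface, and in prdx4 both lay below. The choice of the 25 by a test of these same libraries largely requires this.

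**Figure D5:**
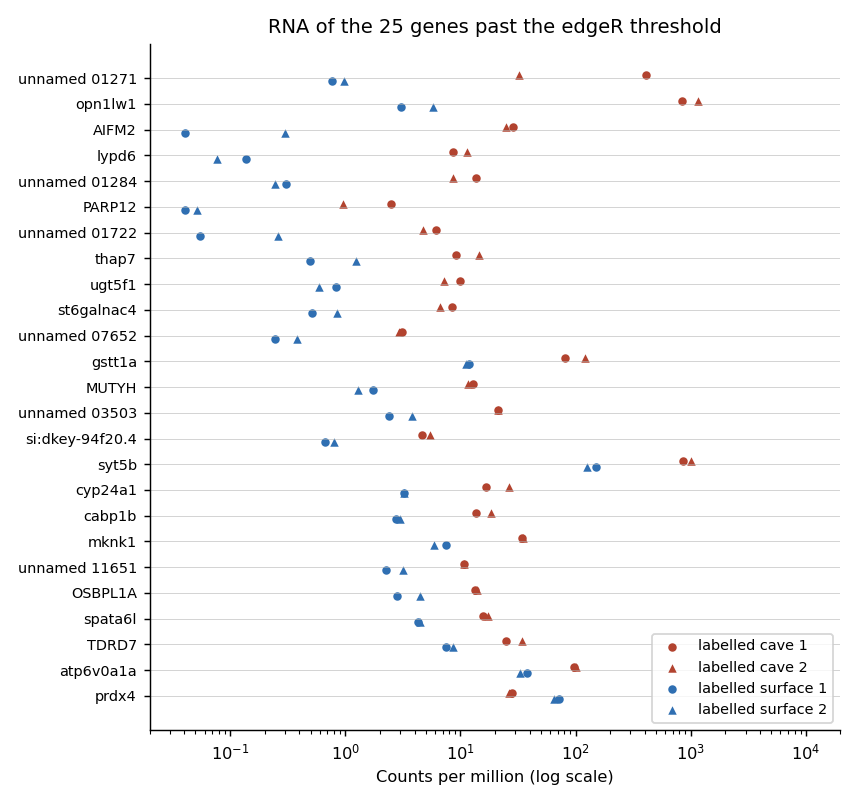
RNA of the 25 genes of the set past the edgeR threshold, in CPM on a log axis, with 1 row a gene ordered by log2 fold change. Red marks are the 2 libraries labelled cave and blue marks the 2 labelled surface, and unnamed genes carry the last digits of their identifier. The groups do not overlap in any row, which the choice of rows by this test largely requires, and prdx4 is the only row with the blue marks to the right.

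The genes with the largest upstream rises were mostly not past the threshold in RNA, which does not show equal levels. Of the 12 named above none passed. The dopamine gene th had 516 and 252 counts under the cave label, against 893 and 2295 under the surface label (log2 -1.69, SE 0.54, adjusted p = 0.188 in edgeR). The gene pqlc2 had 1930 and 3007, against 776 and 785 (log2 2.04, SE 0.39, adjusted p = 0.0643). The groups did not overlap in either gene, which says little with 2 libraries per label. By contrast ppwd1, with 6100 and 6805 counts against 8883 and 8740, had a log2 fold change of -0.095 (SE 0.23), and nipa2, with 7232 and 5393 against 6342 and 6420, one of 0.32 (SE 0.21). The log2 values of the other 8 ran from -0.85 at VGLL3 to 2.68 at rxfp3.3a1, where counts were 80 and 41 against 14 and 9. The clone-named gene zgc:92137, left out of the 12, rose upstream by 76.2 points and had 50 and 46 RNA counts under the cave label, against 0 and 0 under the surface label (adjusted p = 0.0647 in edgeR).

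The 6 genes of the set with the most counts, all chosen for an upstream rise, were not past the threshold in RNA. The brain creatine kinase gene ckbb had 468330 and 621042 counts under the cave label, against 592702 and 555746 under the surface label, with a log2 fold change of 0.29 (SE 0.31). Its upstream region was at 52.8% of 508 calls in cave DNA and 7.08% of 113 in surface DNA. The ribosomal protein gene rps4x had 259404 and 250951 counts, against 336123 and 317073 (log2 -0.012, SE 0.24), and an upstream level of 73.3% and 25.9%. The ribosomal gene rps8a, the RNA-binding protein gene khdrbs1a, the translation factor gene btf3 and marcksa had log2 values of -0.070, -0.33, -0.16 and -0.78. Counts also scale with transcript length, so these levels are not compared between genes.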

How the data were processed

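The RNA table holds raw counts per gene, deposited by the authors. The methylation table holds deposited counts of calls, methylated or not, in each gene body and upstream region, per the file headers. Tools named by the submitters' processing notes, all with no version, are Bismark, Trimmomatic, DESeq2, STAR, featureCounts and Subread. The sources used here do not give genome build, width of the upstream region, cytosine context or removal of duplicates. The authors' own comparison was not used. Symbols and positions are those of the methylation table, with the suffix of multiple copies removed. Genes sharing a symbol or a near copy can share reads.

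Levels were computed from calls, with exact 95% Clopper-Pearson intervals. RNA counts of 2 against 2 libraries went into edgeR 4.0.16 under R 4.3.3 (TMM, default filter, quasi-likelihood, no replicate block) with Benjamini-Hochberg adjustment over 22850 genes at 0.05, checked on simulated counts; the SE is the log2 fold change over the square root of F. DESeq2 1.42.0 was an alternative. With 1 WGBS library per morph no methylation test was made. Python 3.11.15, pandas 2.3.3, scipy 1.17.1 and matplotlib 3.10.9 were used.

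The regions, gene classes and lists were chosen with earlier results of these data known. Genes were named by rule: the 12 largest rises, those nearest the limit, up to 12 RNA calls in each direction where the average log2 CPM reached 1, up to 6 body changes in each direction, up to 4 per class of 3 or more, all on the eye lists, the lowest surface levels, the 6 with most counts, and groups of neighbours. Clone names were left out of the 12. The 4 genes with a symbol and the lowest surface level among those at 75% or more in the cave library are among them.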

Additional observations from a re-analysis of the deposited data

How the results depend on the processing

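The set held 790 regions at a limit of 20 points, 304 at 30 points, and 287 with 200 calls per library, the last chosen after seeing the data. RNA was higher in 22 of 358 genes (6.15%) at 100 upstream calls and in 20 of 270 (7.41%) at 200. With halved cave calls it was higher in 23 of 386 (5.96%), against 2.77% of all genes. Genes with a body 10 points higher numbered 27 of 287 at 200 upstream calls and 37 of 422 with cave calls halved, against 3.1% of all gene bodies. The shares over all genes and gene bodies were not limited by upstream calls. They were not computed at these limits, so the limits are not compared. DESeq2 called 54 genes of the set higher (12.7%) and 13 lower (3.06%), against 6.94 and 3.31% of all genes. Leaving out 1 RNA library gave 0 to 80 higher and 0 to 72 lower. Each of the 25 called genes stayed past the threshold without either cave replicate and under DESeq2, and none did without a surface replicate. In those fits a lone library is assumed to vary like the other group. Without a surface replicate no gene outside the set was called either.

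No source says that equal replicate numbers mark paired samples, and replicate 1 deviations of the morphs correlated at -0.0719 across genes. With replicate number as a block, edgeR called 11 of the set higher (2.63%) and 0 lower, against 1.39 and 0.153% of all genes, with 89 at an unadjusted p under 0.05. Without the block it called 0 lower at 30 points and at 100 or 200 calls, since prdx4 was then out of the set. There 70, 90 and 71 genes of the set were at an unadjusted p under 0.05. The share of all genes was not computed for any of these unadjusted counts, so they do not set the set apart from other genes. The promoter sequence comparison was not run.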

Other observations

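A nearby start on the other strand was less frequent in the set than over all regions, and regions of like surface level or depth were not compared. A gene on the opposite strand began within 2000 bp upstream of 15 of the 463 genes (3.24%), against 1807 of the 23372 with 50 calls (7.73%). Such pairs can share an upstream region, whose width is not given. Small nuclear and nucleolar RNA genes, grouped by symbol after the values were seen, had 7 of 272 regions in the set (2.57%) and 3 at least 25 points lower. The cave library had at least 2 times as many upstream calls as the surface library at 79 of the 463 regions, against 1000 of the 23372.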
